A study of Mus musculus with 8 samples.

Results

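The 36 genes described here are those of fatty acid uptake, activation, carnitine transfer and mitochondrial beta oxidation, with their thioesterases and regulators, taken from a fixed list of gene symbols. They were found on the array by the platform's gene symbol, and 33 of them were measured, among 18193 genes in all. Slc27a6 and Acsl1 had no probe set that names them, and Cpt1b had only a probe set that names several genes, so these 3 were not analysed here. The RNA came from whole hearts of female mice of 4 groups, with 2 mice and 2 arrays in each. The first group held 10-week-old knock-out (KO) mice, which carry a conditional gene deletion under MCK, the muscle creatine kinase driver, active in heart and skeletal muscle. The others were wild-type (WT) mice of 10 weeks, KO mice of 4 weeks and WT mice of 4 weeks. All mice of an age were littermates, no treatment was given in the labels, and the labels do not say which alleles the WT mice carried.

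The heart draws most of its ATP from long-chain fatty acids, which lipoprotein lipase frees from circulating triglyceride and which CD36 and fatty acid transport proteins help across the cell membrane. Inside the cell they are joined to coenzyme A, passed through the carnitine shuttle into the mitochondrion, and shortened in a spiral of dehydrogenation, hydration, a second dehydrogenation and thiolysis. The electrons of the first step leave through electron transfer flavoprotein, and the nuclear receptor PPAR alpha drives transcription of many of these genes.

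At 10 weeks 12 of the 33 members, most of them mitochondrial enzymes, were called lower in KO hearts. That is 36.4% of the members, against 6.89% of all genes called lower, and 0 were called higher, against 5.19% of all genes. Without KO replicate 1 of 10 weeks the number called lower was 7. A gene was called where its p, adjusted by Benjamini-Hochberg across the whole table in a limma fit to log2 intensities, was under 0.05. At an unadjusted p under 0.05 the number was 22 of 33 in either direction, against 23.6% of all genes. The 12 were Cpt2 of the carnitine shuttle, Acads, Echs1, Hadh and Acaa2 of the spiral, Eci1 and Decr1 for unsaturated chains, Etfa and Etfb of electron transfer, Acot13, Mlycd and Ppara. The log2 difference, KO minus WT, was below 0 for 26 members, against 49.2% of all genes, and its median over the 33 was -0.44, against 0.00 over all genes. Both KO hearts lay below both WT hearts for 19 members (background 23.5% of genes), both lay above for 4 (background 23.7%), and the groups overlapped for 10. The members were bright, with 3 of 33 below the median level of all genes, against 9096 of 18193 genes. With genes below that median left out, 12 members were called lower. That fit lacked the 9096 dimmer genes, and 2050 of the remaining genes were called in either direction. In the fit to all 18193 genes 2199 were called (12.1%), so the share called was higher among the brighter genes. The background shares given here are over all genes, dim ones included, and shares among genes as bright as the members are not given. In RNA from whole tissue, fewer cells of a type and less RNA per cell cannot be told apart.

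**Figure D1:**
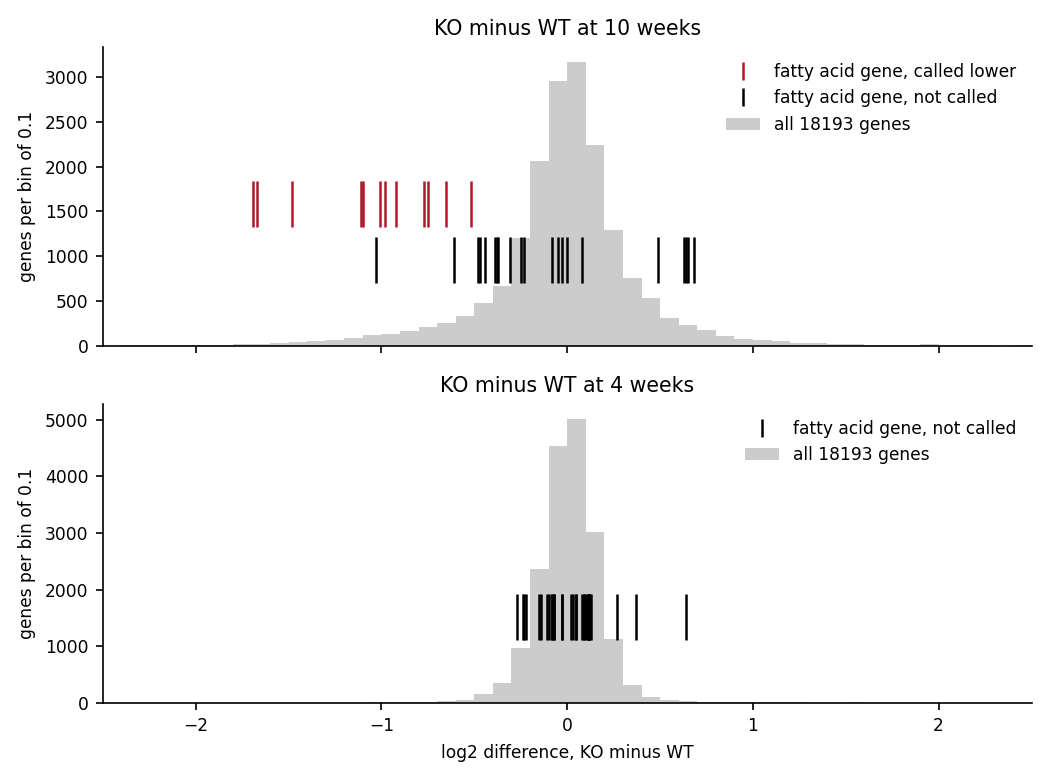
Grey histograms of the log2 difference, KO minus WT, of all 18193 genes (x axis, log2 units; y axis, number of genes per bin of 0.1) at 10 weeks in the upper panel and 4 weeks in the lower, with a vertical line for each of the 33 members, red where it was called lower. At 10 weeks 26 members lie left of 0, and at 4 weeks they lie around a median of 0.05.

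The arrays had median intensities between 34.3 and 37.4 on the linear scale, and their number, 2 per group, limits the precision. Replicate 1 of the 10-week WT hearts, one of the 2 behind each 10-week difference, stood apart on the second principal component, at 43.3, with the other 7 arrays between -13.9 and 4.2. It also had the highest Kap, a kidney gene, at log2 9.73, against 7.29 in the other 10-week WT heart, while Alb, a liver gene, read 10.94 there and 11.05 in a 4-week KO heart. Without this array 15 members were lower at 10 weeks. Cardiomyocyte markers were high on every array, the lowest level of any of the 10 being log2 8.31. At 10 weeks 3 of these 10 markers were lower in KO hearts and 1 was higher, and their summed linear intensity was 97600 to 107000 in KO hearts, against 102000 to 118000 in WT hearts. Of 8 fibroblast markers 7 were higher, with sums of 20600 to 21000 in KO hearts and 6310 to 8370 in WT hearts. Of 8 macrophage markers 5 were higher, with sums of 7440 to 8880 in KO hearts and 3750 to 3970 in WT hearts. None of 6 white adipocyte markers was called, with sums of 7300 to 7910 in KO hearts and 5630 to 9030 in WT hearts. Liver markers summed to 225 to 344 in KO hearts and 510 to 4770 in WT hearts, with 0 of 5 called, and kidney markers to 111 to 114 in KO hearts and 217 to 959 in WT hearts, with 1 of 5 called lower. Of 7 atrial markers 1 was lower, Sln (-2.35), and 1 higher, Nppa (1.04), with sums of 23700 to 24000 in KO hearts and 16300 to 24600 in WT hearts. In KO hearts these sums were mostly Nppa, at log2 14.23 and 14.29. Both KO hearts lay below both WT hearts for Sln, Myl7, Myl4, Tbx5 and Nr2f2 and above them for Nppa, and Bmp10 overlapped. Of 6 skeletal muscle markers 2 were higher, Acta1 (2.45) and Tnnt3 (0.69), with sums of 7330 to 11500 in KO hearts and 1600 to 2000 in WT hearts. These sums were mostly Acta1, at log2 12.81 and 13.48 in KO hearts and 10.51 and 10.88 in WT hearts. The other markers of this list lay at or below log2 5.76 in the 10-week hearts, and Myh4, Myh1, Pvalb and Actn3 were not called. The endothelial list (8 genes) and the brown adipocyte list (4 genes) each had 1 called higher and 0 called lower. The endothelial one was Emcn (0.49), while the other 7 had differences below 0, with a median over the list of -0.16. Both KO hearts lay below both WT hearts for Tie1, Egfl7 and Cldn5 and above them for Emcn, and the remaining endothelial markers overlapped. Endothelial sums were 1970 to 2240 in KO hearts and 1920 to 2430 in WT hearts, and brown adipocyte sums were 996 to 1060 in KO hearts and 721 to 1100 in WT hearts. No marker is listed at 0. What part these shifts had in the members' differences was not tested.

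The 4 uptake genes measured did not pass the test on the probe set used, and Slc27a6 was not analysed. Lpl, which releases fatty acids from lipoproteins, read log2 13.11 and 13.28 in 10-week KO hearts, against 13.27 and 13.62 in WT hearts, so the groups overlapped, with a difference of -0.25 ± 0.15 (SE, limma adjusted p = 0.36). Cd36, the membrane fatty acid translocase, read log2 11.74 and 11.51 in KO hearts, against 11.97 and 12.24 in WT hearts. Both KO values lay below both WT values, with a difference of -0.48 ± 0.15 and an adjusted p of 0.0707. The dimmer probe sets of these genes gave larger differences, at -0.82 ± 0.22 for Lpl (adjusted p = 0.0495 with every probe set tested singly) and at -1.22 ± 0.14 for the dimmest of Cd36 (adjusted p = 0.000903). Fabp3, the heart's cytosolic fatty acid binding protein, read log2 13.31 and 13.38 in KO hearts, against 13.77 and 13.66 in WT hearts. Its groups did not overlap either, and the difference of -0.37 ± 0.14 had an adjusted p of 0.132. Slc27a1, a fatty acid transport protein, lay on the other side, at log2 7.93 and 8.21 in KO hearts and 6.98 and 7.86 in WT hearts. Its WT hearts were far apart, and the difference of 0.65 ± 0.25 did not pass (adjusted p = 0.137). The dimmer probe set of Slc27a1 gave 0.04 ± 0.15 (adjusted p = 0.922 with every probe set tested singly). Cd36 was called lower with its probe sets averaged, at -0.76 ± 0.13 (limma adjusted p = 0.00777). Without WT replicate 1 of 10 weeks the Cd36 difference was -0.62, and over the alternative settings it ran from -0.76 to -0.27. Without WT replicate 2 that of Slc27a1 was 1.09, read against WT replicate 1 alone, the array that stood apart on the second principal component. Over the alternative settings the Slc27a1 difference ran from 0.22 to 1.09.

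Of the 4 acyl-CoA synthetases measured, which join fatty acids to coenzyme A, none was called at 10 weeks. Acsl1 was not analysed, so the step as a whole was not read. Acsl4, which prefers arachidonate, read log2 6.06 and 6.06 in KO hearts, against 5.23 and 5.61 in WT hearts. Acsl6 read log2 6.62 and 7.21 in KO hearts, against 6.25 and 6.22 in WT hearts. For both, the KO hearts lay above the WT hearts, with differences of 0.64 ± 0.21 (adjusted p = 0.0811) and 0.68 ± 0.22 (adjusted p = 0.0884). A dimmer probe set of Acsl4 was called higher when tested singly, at 0.53 ± 0.14 (adjusted p = 0.0394). Without WT replicate 2 of 10 weeks the Acsl4 difference was 0.83, read against WT replicate 1 alone, the array that stood apart. Over the alternative settings the Acsl4 difference ran from 0.43 to 0.83. Acsl6 was called higher with its probe sets averaged, at 0.45 (adjusted p = 0.0282), and without KO replicate 1 its difference was 0.97. Acsl3 differed by -0.05 and Acsl5 by 0.00, and their groups overlapped.

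In the carnitine shuttle Cpt2 was lower, Cpt1a and Crat were not called, and Cpt1b was not analysed. Cpt2, the inner membrane enzyme that gives the acyl group back to coenzyme A, read log2 9.12 and 9.60 in 10-week KO hearts, against 10.78 and 10.90 in WT hearts. Both KO hearts lay over 1 log2 unit below both WT hearts, and Cpt2 was 2.79-fold lower, a log2 difference of -1.48 ± 0.17 (limma adjusted p = 0.000713). Cpt1a, the liver-type outer membrane enzyme that makes the acylcarnitine, read log2 7.85 and 7.63 in KO hearts, against 6.97 and 7.54 in WT hearts. Its KO hearts lay above its WT hearts, with a difference of 0.49 ± 0.18 that did not pass (adjusted p = 0.137). Without WT replicate 2 of 10 weeks the Cpt1a difference was 0.77, read against WT replicate 1 alone, the array that stood apart. Over the alternative settings it ran from 0.20 to 0.77. Crat, the carnitine acetyltransferase, read log2 9.12 and 9.07 in KO hearts, against 9.05 and 9.30 in WT hearts, which overlapped (-0.08, adjusted p = 0.8). The 250 bases before the RefSeq transcription starts of Cpt2, the one shuttle gene that was called, and of Cpt1a, which lay on the other side, are shown 5′ to 3′ on the gene's strand (GRCm38). They are chr4:107923590-107923839 on the minus strand for Cpt2 and chr19:3323051-3323300 on the plus strand for Cpt1a. Capitals mark the nuclear receptor core hexamer, AGGTCA or its reverse complement TGACCT. The hexamer was present once before Cpt1a, with its first base at -94, and absent from the window of Cpt2. Among 27025 genes, 18.1% had it between 250 bases before and 50 after the start. Whether it bears on the level of either gene was not tested.
Cpt2: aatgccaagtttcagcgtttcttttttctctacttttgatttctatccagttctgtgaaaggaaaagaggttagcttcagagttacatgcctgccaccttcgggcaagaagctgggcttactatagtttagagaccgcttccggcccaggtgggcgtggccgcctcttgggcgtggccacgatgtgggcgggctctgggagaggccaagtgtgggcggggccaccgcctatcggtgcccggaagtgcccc
Cpt1a: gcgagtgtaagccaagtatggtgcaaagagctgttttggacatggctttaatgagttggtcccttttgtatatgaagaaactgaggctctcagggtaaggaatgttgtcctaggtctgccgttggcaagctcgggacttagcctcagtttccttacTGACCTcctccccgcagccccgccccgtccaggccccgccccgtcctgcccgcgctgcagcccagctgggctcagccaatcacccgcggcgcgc

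The acyl-CoA dehydrogenases, which take the first pair of hydrogens and differ in chain length, were mostly not called. Acads, for short chains, read log2 8.35 and 8.43 in 10-week KO hearts, against 8.75 and 9.08 in WT hearts. Its KO hearts lay below its WT hearts, by 1.44-fold (-0.52 ± 0.14, adjusted p = 0.0391), and that call was lost under 10 of 19 alternative settings. Acadm, for medium chains, read log2 11.80 and 12.07 in KO hearts, against 12.26 and 12.55 in WT hearts, again without overlap (-0.47 ± 0.15, adjusted p = 0.0741). Acadvl, for very long chains, read log2 11.64 and 12.02 in KO hearts, against 11.77 and 12.34 in WT hearts, and Acadl, for long chains, read 12.18 and 12.51 in KO hearts, against 12.09 and 12.43 in WT hearts. Both overlapped, with differences of -0.23 ± 0.21 and 0.08 ± 0.17. Acadsb, which acts on short branched chains from isoleucine, differed by -0.39 ± 0.18 (adjusted p = 0.222).

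Of the later steps of the spiral, the soluble matrix enzymes were called lower and the membrane-bound trifunctional protein was not. Echs1, the short-chain enoyl-CoA hydratase, read log2 9.84 and 10.04 in 10-week KO hearts, against 10.81 and 11.04 in WT hearts. Its KO hearts were well below its WT hearts, 1.98-fold (-0.98 ± 0.13, adjusted p = 0.00156). Hadh, the short-chain hydroxyacyl-CoA dehydrogenase, read log2 11.88 and 12.09 in KO hearts, against 12.61 and 12.89 in WT hearts, and Acaa2, the matrix thiolase, read 10.80 and 11.33 in KO hearts, against 11.87 and 12.27 in WT hearts. Neither overlapped, and Hadh was 1.7-fold lower (-0.77 ± 0.15, adjusted p = 0.0099) and Acaa2 2.01-fold lower (-1.01 ± 0.19, adjusted p = 0.00928). The call was lost under 3 of 19 alternative settings for Hadh and 2 of 19 for Acaa2, and Echs1 kept it under all 19. Hadha and Hadhb, the alpha and beta subunits of the trifunctional protein, which hydrates, oxidises and cleaves long chains, were not called. Hadha read log2 11.31 and 11.80 in KO hearts, against 11.78 and 12.08 in WT hearts (-0.38 ± 0.18, adjusted p = 0.239). Hadhb read log2 12.11 and 12.50 in KO hearts, against 12.36 and 12.86 in WT hearts (-0.31 ± 0.19, adjusted p = 0.389). The groups of both subunits overlapped. Whether the matrix enzymes' differences exceed those of the trifunctional subunits was not tested.

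The windows before Hadhb and Echs1 are shown as one uncalled and one lowered gene of these steps. Hadha and Hadhb are divergent neighbours on chromosome 5, with 272 bases between their first transcribed bases, so that the window of Hadhb, chr5:30155003-30155252 on the plus strand, also holds most of the window of Hadha read on the other strand. The window of Echs1 is chr7:140116422-140116671 on the minus strand, and capitals mark its AGGTCA hexamer, with its first base at -83. Echs1 was the 1 member called lower at 10 weeks whose window held this hexamer, of 9 with a window.
Hadhb: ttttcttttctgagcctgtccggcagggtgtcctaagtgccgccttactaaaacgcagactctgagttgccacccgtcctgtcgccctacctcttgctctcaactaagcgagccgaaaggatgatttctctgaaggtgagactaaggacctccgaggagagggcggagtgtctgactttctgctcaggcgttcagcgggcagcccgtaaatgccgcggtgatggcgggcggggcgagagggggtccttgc
Echs1: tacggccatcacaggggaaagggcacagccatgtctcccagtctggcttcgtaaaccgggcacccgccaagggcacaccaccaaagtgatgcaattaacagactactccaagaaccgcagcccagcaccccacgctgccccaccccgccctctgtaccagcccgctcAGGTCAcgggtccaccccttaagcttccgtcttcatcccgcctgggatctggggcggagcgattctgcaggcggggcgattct

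Of the enzymes that bring unsaturated chains into the spiral, Eci1 and Decr1 were lower and Eci2 was not called. Eci1, the mitochondrial enoyl-CoA delta isomerase, read log2 9.65 and 10.14 in 10-week KO hearts, against 10.96 and 11.05 in WT hearts, 2.16-fold lower (-1.11 ± 0.16, adjusted p = 0.00262). Decr1, the dienoyl-CoA reductase, read log2 10.29 and 10.52 in KO hearts, against 11.45 and 11.56 in WT hearts, 2.15-fold lower (-1.10 ± 0.14, adjusted p = 0.00125). In both, the WT hearts were close together and every KO heart lay below them. Eci2, an isomerase found in peroxisomes as well as mitochondria, read log2 9.82 and 10.11 in KO hearts, against 10.25 and 10.56 in WT hearts, without overlap (-0.44 ± 0.15, adjusted p = 0.099).

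Both subunits of electron transfer flavoprotein, which passes electrons from the acyl-CoA dehydrogenases towards ubiquinone, were lower. Etfb read log2 10.10 and 10.33 in 10-week KO hearts, against 11.88 and 11.89 in WT hearts. The WT hearts were nearly equal and both KO hearts lay far below, 3.19-fold (-1.67 ± 0.14, adjusted p = 0.000138). Etfa read log2 10.77 and 11.24 in KO hearts, against 11.94 and 11.91 in WT hearts, also without overlap, 1.89-fold lower (-0.92 ± 0.17, adjusted p = 0.0073). The window before Etfb, shown because Etfb had the smallest adjusted p of the members, is chr7:43443822-43444071 on the plus strand and holds no AGGTCA on either strand.
Etfb: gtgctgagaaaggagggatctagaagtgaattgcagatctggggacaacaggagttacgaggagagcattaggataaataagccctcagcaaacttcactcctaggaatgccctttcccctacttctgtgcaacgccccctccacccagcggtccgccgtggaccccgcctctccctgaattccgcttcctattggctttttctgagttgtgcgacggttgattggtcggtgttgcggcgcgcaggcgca

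Among the thioesterases, which cut acyl-CoA back to free acid, Acot13 had the largest difference of all 33 members. It read log2 10.57 and 10.24 in 10-week KO hearts, against 12.22 and 11.96 in WT hearts, 3.22-fold lower (-1.69 ± 0.15, adjusted p = 0.000254). Acot1, the cytosolic enzyme, was dim, at log2 4.52 and 4.55 in KO hearts and 5.39 and 5.74 in WT hearts, and its difference of -1.03 ± 0.33 did not pass (adjusted p = 0.0811). Acot2, its mitochondrial relative, read log2 8.43 and 8.58 in KO hearts, against 8.42 and 8.66 in WT hearts. The KO values of Acot2 lay within the range of the WT values, while those of Acot13 and Acot1 lay below it. Acot1 and Acot2 are near-identical in sequence, so their probe sets may share signal.

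**Figure D2:**
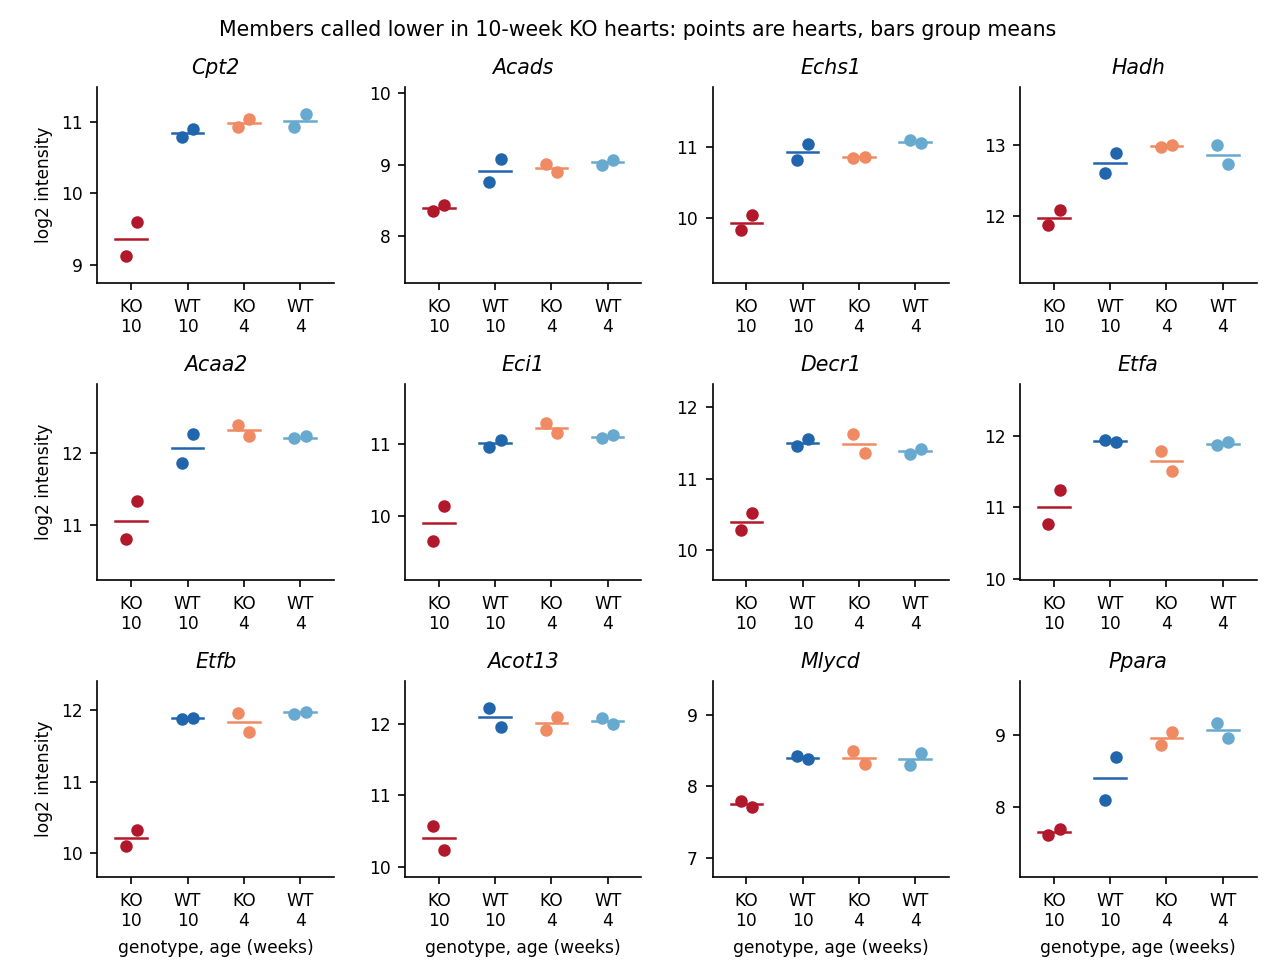
Log2 intensity (y axis) of the 12 members called lower at 10 weeks, 1 panel per gene, with 1 point per heart, a bar at each group's mean, and the groups in the order 10-week KO, 10-week WT, 4-week KO, 4-week WT. In every panel both 10-week KO points lie below both 10-week WT points.

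Of the regulators, Mlycd and Ppara were called lower, and Ucp3 and Pdk4 were not called. Mlycd, malonyl-CoA decarboxylase, which removes the inhibitor of carnitine palmitoyltransferase 1, read log2 7.80 and 7.71 in 10-week KO hearts, against 8.43 and 8.38 in WT hearts, 1.57-fold lower (-0.65 ± 0.13, adjusted p = 0.0102). Ppara, which encodes PPAR alpha, read log2 7.61 and 7.69 in KO hearts, against 8.10 and 8.69 in WT hearts, 1.68-fold lower (-0.75 ± 0.19, adjusted p = 0.0308). Neither gene's groups overlapped, and the call of Ppara was lost under 8 of 19 alternative settings, among them without either 10-week KO heart (adjusted p = 0.15 and 0.109). Both further probe sets of Ppara were called lower when tested singly, at -0.80 ± 0.15 (adjusted p = 0.00989) and -1.02 ± 0.18 (adjusted p = 0.00674). Ucp3, an inner membrane carrier of muscle, read log2 6.44 and 5.96 in KO hearts, against 7.10 and 6.53 in WT hearts, below them without overlap (-0.61 ± 0.26, adjusted p = 0.18). Pdk4, the kinase that switches off pyruvate dehydrogenase, read log2 12.08 and 11.10 in KO hearts, against 10.20 and 11.71 in WT hearts. Its mice of one group differed by more than the groups did (0.63 ± 0.57, adjusted p = 0.598).

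**Figure D3:**
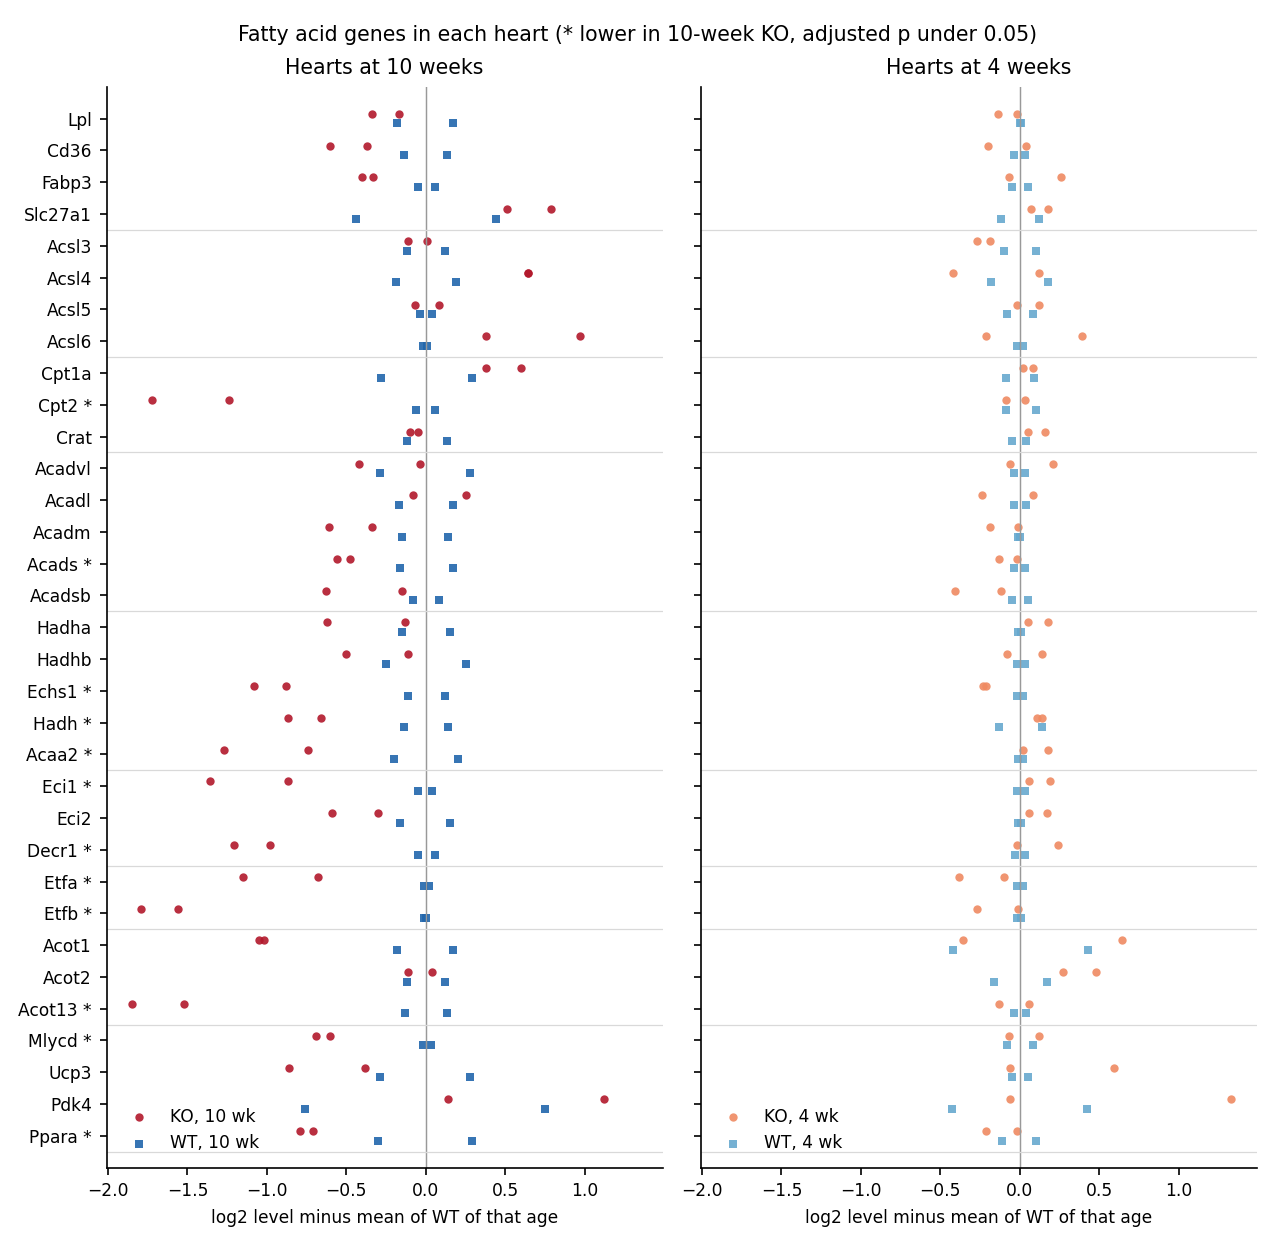
Level of each of the 33 members (rows, by role) in each heart as a log2 difference from the mean of the WT hearts of the same age (x axis), with circles for KO hearts, squares for WT hearts, and a star at the 12 members called lower at 10 weeks. The 10-week KO hearts lie left of the 10-week WT hearts in 19 rows, with Acot13, Etfb and Cpt2 farthest, and right of them in 4, while the 4-week KO hearts lie around 0.

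18 of the 33 members had more than 1 probe set, which gave 27 further readings of the same mRNAs. With each probe set tested singly, 9 of the 27 were called lower at 10 weeks and 1 was called higher. For 3 members, Fabp3, Acsl3 and Acot2, a further probe set had the opposite sign, and none of those was called. The further probe sets of Hadh gave -0.95 ± 0.16 and -0.60 ± 0.15, those of Acaa2 -1.18 ± 0.20 and -1.35 ± 0.24, and that of Decr1 -1.07 ± 0.19, all called lower. The further probe set of Cpt2, read near log2 5, gave -0.39 ± 0.13 and was not called (adjusted p = 0.091). Crat differed between its probe sets, at -0.67 ± 0.19 on one that was not called (adjusted p = 0.0608), against -0.08 on the brightest.

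**Figure D4:**
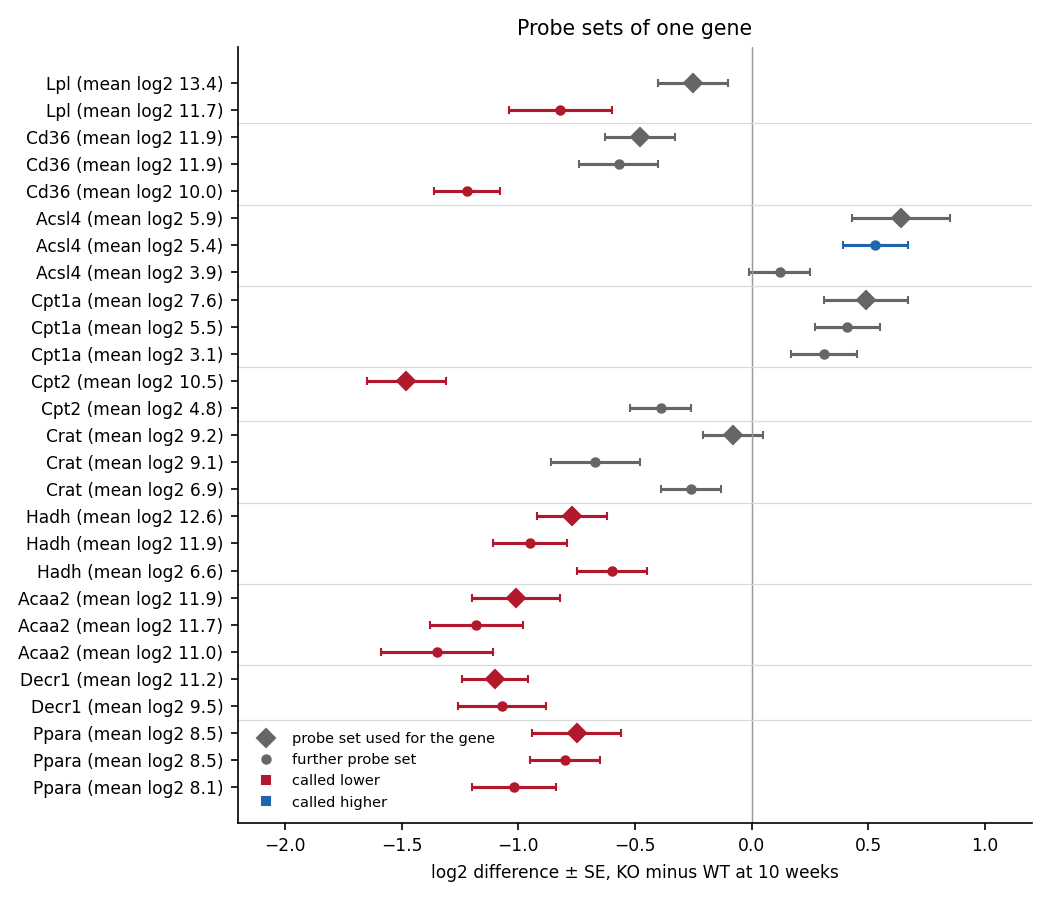
Log2 difference, KO minus WT at 10 weeks, with its SE (x axis), for each probe set of 10 members (rows, with the mean log2 intensity over the 8 arrays). Diamonds are the probe sets used for the genes and circles the further ones, red where called lower and blue where called higher when tested singly; the dimmest probe sets of Cd36 and Lpl lie left of the brightest of the same gene.

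At 4 weeks, none of the 33 members was called in the limma fit, against 0.0275% of all genes, and 1 had an unadjusted p under 0.05, against 3.73% of all genes. That one was Acot2, at log2 9.05 and 8.84 in KO hearts and 8.41 and 8.74 in WT hearts (0.37, adjusted p = 0.999). The median difference over the members was 0.05, between -0.27 for Acadsb and 0.64 for Pdk4. The 3 members with the largest differences at 10 weeks, Acot13, Etfb and Cpt2, overlapped between genotypes at 4 weeks. Cpt2 read log2 10.92 and 11.04 in KO hearts, against 10.92 and 11.11 in WT hearts, and Acot13 read 11.91 and 12.10 in KO hearts, against 12.08 and 12.00 in WT hearts. Etfb read log2 11.96 and 11.70 in KO hearts, against 11.95 and 11.98 in WT hearts. Echs1 did not overlap, at log2 10.84 and 10.86 in KO hearts and 11.09 and 11.05 in WT hearts, and its difference of -0.22 was not called. Both KO hearts lay below both WT hearts for 6 members (background 17.5% of genes) and above for 5 (background 19.4%), and 22 overlapped. With 2 mice a group and a median SE of 0.145, small differences were not detectable.

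The change of the KO minus WT difference between the ages was tested as an interaction in the same fit. It was called for 5 of the 33 members, all towards lower at 10 weeks, against 1.2% of all genes in that direction, 0.879% in the other and 2.08% in either. The 5 were Acot13 (-1.66 ± 0.22, adjusted p = 0.00985), Etfb (-1.53 ± 0.19, adjusted p = 0.00759), Cpt2 (-1.45 ± 0.24, adjusted p = 0.0211), Eci1 (-1.23 ± 0.23, adjusted p = 0.0343) and Decr1 (-1.21 ± 0.20, adjusted p = 0.0211). At an unadjusted p under 0.05 the number was 17, against 13.9% of all genes, and the median change over the members was -0.45. The number called depended on single arrays, and a fit without 1 array leaves 1 heart in that group. Without 4-week WT replicate 1, the change was -1.70 for Acot13, -1.52 for Etfb, -1.36 for Cpt2, -1.20 for Eci1 and -1.17 for Decr1. Without 4-week WT replicate 2, it was -1.62, -1.55, -1.55, -1.26 and -1.24 in the same order. Without KO replicate 1 of 10 weeks, it was -1.21 for Cpt2, -0.98 for Eci1 and -1.09 for Decr1.

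Between the ages within a genotype, age and litter cannot be told apart. In KO hearts 15 of the 33 members were lower at 10 weeks than at 4 weeks and 1 was higher, against 7.07% of all genes lower, 3.42% higher and 10.5% either. In WT hearts none of the 33 was called in the limma fit, against 0.115% of all genes in either direction, 0.066% lower and 0.0495% higher. The comparison within KO hearts shares its 10-week KO arrays with the comparison of the genotypes at 10 weeks, so the calls of one are no independent evidence for the other. Ppara read log2 7.61 and 7.69 in KO hearts of 10 weeks, against 8.86 and 9.05 in KO hearts of 4 weeks (-1.31, adjusted p = 0.00293). The KO hearts of the ages did not overlap. In WT hearts Ppara read log2 8.10 and 8.69 at 10 weeks, against 9.17 and 8.96 at 4 weeks, which was not called. Ucp3 (-1.11, adjusted p = 0.0253), Acot1 (-1.30, adjusted p = 0.0375) and Eci2 (-0.90) were lower at 10 than at 4 weeks in KO hearts, although their difference from WT hearts at 10 weeks was not called. Acsl6 was higher at 10 than at 4 weeks in KO hearts, at log2 6.62 and 7.21 at 10 weeks, against 5.65 and 6.25 at 4 weeks (0.97 ± 0.22, adjusted p = 0.0258). The call of Acsl6 was lost without KO replicate 2 of 10 weeks (0.67, adjusted p = 0.141), without KO replicate 1 of 4 weeks (0.67, adjusted p = 0.139) and without either 4-week WT heart (adjusted p = 0.0602). The age calls in KO hearts were lost under 5 of 19 alternatives for Ucp3, 4 of 17 for Acot1 and 1 of 18 for Eci2. Without KO replicate 1 of 10 weeks, 9 members were lower with age in KO hearts, and without WT replicate 2 of 10 weeks, 4 were lower with age in WT hearts.

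Other genes of the same pathways, outside the 36, were read at 10 weeks in the same fit, in which 6.89% of all genes were called lower and 5.19% higher. The nearest list, further mitochondrial oxidation enzymes, had 7 of 13 lower with a median of -0.67. Its named members were Hsd17b10, a hydroxyacyl-CoA dehydrogenase of isoleucine breakdown (-1.36), Echdc3 (-1.07), Acad11 (-1.06) and Acat1, the acetoacetyl-CoA thiolase (-0.89). In the carnitine list 3 of 7 were lower, namely Slc25a20, the carnitine-acylcarnitine carrier between the palmitoyltransferases (-0.79 ± 0.12), Aldh9a1 of carnitine synthesis (-0.72) and Crot, the peroxisomal octanoyltransferase (-0.55). Of 17 measured genes of the peroxisomal list, whose enzymes need not be confined to peroxisomes, 4 were lower. They were Ech1 (-1.34), Ehhadh (-1.27), Phyh of phytanate alpha oxidation (-1.07) and Amacr (-0.98). Of 18 further uptake and activation genes 3 were lower, Dbi, the acyl-CoA binding protein (-1.05), Gpihbp1, which anchors lipoprotein lipase on capillaries (-0.61), and Lmf1, its maturation factor (-0.60). The calls of Crot, Gpihbp1 and Lmf1 were lost under 13, 10 and 8 of 19 alternative settings.

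Of 23 further regulators 5 were lower at 10 weeks, among them Lpin1 (-1.13), Klf15 (-1.06), Sirt3, the mitochondrial deacetylase (-0.87), and Sirt1 (-0.58). Of 13 further thioesterase and pyruvate dehydrogenase regulators 2 were lower, Acot7 (-0.61) and the phosphatase gene Pdp1 (-0.48), and 2 were higher, the kinase gene Pdk3 (0.82) and Acot9 (0.60). The calls of Acot7 and Pdp1 were lost under 11 and 8 of 19 alternatives, and that of Sirt1 under 5 of 17. Of 10 PPAR alpha targets outside oxidation 1 was lower, a share near the 6.89% of all genes, namely Plin5, which coats lipid droplets at mitochondria (-1.84 ± 0.13, adjusted p = 5.29e-05).

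Promoter windows of 250 bases before to 50 after the start were given by RefSeq (GRCm38) for 29 of the 36 members, and not for Lpl, Slc27a6, Cpt1b, Crat, Acaa2, Decr1 and Acot13. The direct repeat AGGNCA, 1 base, AGGNCA, searched on both strands as a form of the PPAR element, was in the windows of 0 of the 29 members and in 0.451% of 27025 genes. TNAAGGTCA, a form of the estrogen-related receptor element, was in 1 member, Acsl6, and in 1.43% of genes. The hexamer AGGTCA, which lies inside the second motif and was added after the first motifs were counted, was in the windows of 7 members, Cd36, Acsl6, Cpt1a, Acadvl, Acadm, Echs1 and Ucp3, and in 18.1% of genes. No match says only that these letters are not in this window. The windows' median GC content was 62.7% for the 9 members that were lower at 10 weeks and had a window, 61% for the 29 members and 52.7% for all genes, and the median number of CpG dinucleotides was 17 for those 9, 16 for the 29 and 7 for all genes.

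Pdk4 differed widely between mice of a group. It was higher in replicate 1 of each KO group and higher in replicate 2 of each WT group, with the smallest gap between mice of a group at 0.84 on the log2 scale. At 4 weeks it read log2 12.12 and 10.73 in KO hearts, against 10.36 and 11.21 in WT hearts, so the genotypes overlapped at both ages. This order of replicates in all 4 groups was shared by 597 genes, 3.28% of those measured, and by Cd36 and Cpt1a among the members. Ranked by the smallest gap, and chosen here for that pattern after the values were seen, Angptl4, an inhibitor of lipoprotein lipase, came first (1.26), followed by Txnip (0.55), and the lipid droplet gene Plin2 (0.26) was among the leading 10. Angptl4 read log2 7.63 and 6.22 in 10-week KO hearts, 6.39 and 8.0 in 10-week WT hearts, 8.48 and 6.60 in 4-week KO hearts and 6.23 and 7.49 in 4-week WT hearts. Since Angptl4 was chosen by that order, the hearts with high Pdk4 are those with high Angptl4 within each group, over 8 arrays. An association between the 2 genes was not tested.

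**Figure D5:**
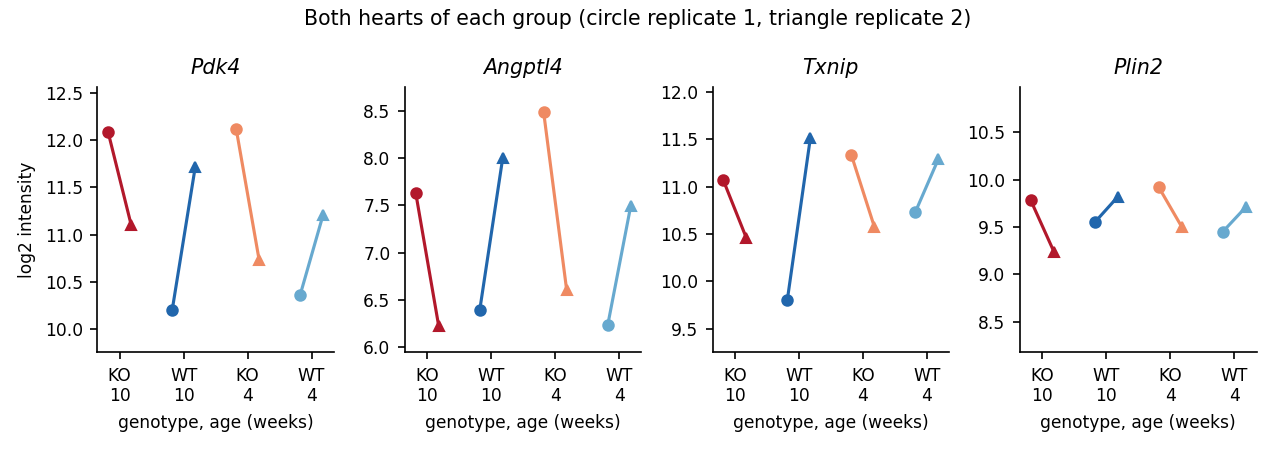
Log2 intensity (y axis) of Pdk4, Angptl4, Txnip and Plin2 in each of the 8 hearts by group (x axis), with circles for replicate 1 and triangles for replicate 2 and a line joining the 2 mice of a group. In each KO group replicate 1 lies above replicate 2 and in each WT group it lies below, for all 4 genes.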

How the data were processed

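Total RNA of 8 hearts was extracted with TRIzol and labelled with biotin for Affymetrix mouse arrays, 1 per heart, per the labels' protocols. The authors deposited intensities of probe sets on a linear scale. GCOS 1.3 and RMA are the tools that the submitters' processing notes name, with no RMA version. RMA equalises the arrays' distributions, so a level is relative to the rest of its array. Log2 was taken here without a filter or pseudocount.

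Each of 18193 genes was read from its single-gene probe set with the highest mean, named by the platform annotation, and all 33 measured members matched RefSeq by Entrez ID. All 8 arrays entered 1 linear model of group means in limma 3.58.1 (R 4.3.3, eBayes), with 4 residual and 9.33 total degrees of freedom. All adjusted p-values are two-sided limma values with Benjamini-Hochberg adjustment over all genes, or over 34945 probe sets where tested singly. Each array is a separate mouse, and p-values measure the spread between these mice.

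The members, the further gene lists and the tests were chosen with earlier results of these data known. All measured members are described. Of the further lists, up to 4 called genes with the largest difference are named. Angptl4, Txnip and Plin2 were chosen by a ranking made after the data were seen. Alternatives changed the probe set choice (averaged per gene, tested singly, or without shared sequence), the filter on dim genes, the scaling (quantile or median), the variance model (trend with robust settings, or array weights), the samples (only those compared, or 1 array fewer), or added a block for the replicate number. The deleted gene itself is not reported here.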

Additional observations from a re-analysis of the deposited data

Results flagged for a closer look

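The KO minus WT difference of 5 members was not the same at the 2 ages by the interaction test of the limma fit, which called 2.08% of all genes. The count was 0 without either 4-week WT heart. On the log2 scale, the difference at 10 weeks minus that at 4 weeks was -1.66 for Acot13, -1.53 for Etfb, -1.45 for Cpt2, -1.23 for Eci1 and -1.21 for Decr1. In each of these, both 10-week KO hearts lay below every other heart of the series. The ages differ in litter as well, and the cause of the change was not tested.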

How the results depend on the processing

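The 12 members called lower at 10 weeks were refitted in 227 combinations of member and alternative setting. 201 were still called lower, 26 were not, and 0 changed sign. Cpt2, Echs1, Eci1, Decr1, Etfb and Acot13 were called under every alternative run, while Acads, Ppara, Hadh, Acaa2, Etfa and Mlycd each lost the call under at least 1. Leaving out 1 array gave 7 to 15 members lower at 10 weeks, with 7 without KO replicate 1, and 0 to 3 higher, with 1154 to 3244 genes called in all. At 4 weeks it gave 0 members and 3 to 12 genes. The change between ages ran over 0 to 9 members lower, 0 to 1 higher and 40 to 1600 genes. With age, 9 to 17 members were lower and 0 to 1 higher in KO hearts (527 to 3035 genes), and 0 to 4 were lower and 0 higher in WT hearts (4 to 2946 genes, the last without WT replicate 2 of 10 weeks). Averaging the probe sets of each gene gave 1 member higher at 10 weeks. The replicate numbers are not stated to pair mice, and same-numbered mice deviated together only weakly, with a correlation across genes of 0.23 at 10 weeks and 0.30 at 4 weeks. With the replicate number as a block, 14 members were lower and 3 higher at 10 weeks, the 3 being Slc27a1 (adjusted p = 0.0339), Acsl4 (0.0156) and Acsl6 (0.045), 8 changed lower between the ages with 751 genes, and 107 genes were called with age in WT hearts. Testing all probe sets singly called 3440 probe sets at 10 weeks, 9 at 4 weeks, 3011 with age in KO hearts and 36 with age in WT hearts. With only the groups compared, 959 genes were called at 10 weeks, 13 at 4 weeks and 3 with age in WT hearts. Array weights called 14 genes at 4 weeks, and trend and robust settings 45 with age in WT hearts. The cause of these shifts was not tested. Some uncalled 10-week differences changed sign. Acot2 was 0.12 with the mean of its probe sets and 0.01 after quantile normalization, Crat was 0.06 after it, and Acsl5 was -0.02 after median centring. Leaving out 1 array of 10 weeks put Acsl3 between -0.18 and 0.07, Acsl5 between -0.07 and 0.07, Crat between -0.20 and 0.05, Acadvl between -0.51 and 0.06, Acadl between -0.09 and 0.25, Acot2 between -0.15 and 0.09 and Pdk4 between -0.12 and 1.39. The number of arrays, 2 a group, limits the precision of all these values, and Acsl3, Acsl4 and Acot1 had signals below the median level of all genes.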

Other observations

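Within the groups, the members tended to be ordered alike between the mice. Replicate 1 lay below replicate 2 for 24 of the 33 members in 10-week KO hearts (72.7%, against 50.7% of all genes) and for 27 in 10-week WT hearts (81.8%, against 45.7%). In 4-week KO hearts it lay below for 9 (27.3%, against 50.7%) and in 4-week WT hearts for 26 (78.8%, against 49.7%). The median log2 gap, replicate 1 minus replicate 2, was -0.20 in 10-week KO hearts, -0.27 in 10-week WT hearts, 0.13 in 4-week KO hearts and -0.05 in 4-week WT hearts. The members share each heart's library, so these counts are a description of single mice.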
